A study of Sus scrofa with 60 samples.

Results

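Solute carriers are the membrane proteins that move sugars, amino acids, bile acids, vitamins, metals, ions and metabolites across the plasma membrane, the membranes of organelles and the inner mitochondrial membrane. They were taken here as every probe set whose single gene symbol in the array's annotation starts with SLC or SLCO followed by a family number and the letter A. This rule found 171 probe sets of 114 genes among the 10069 probe sets of 6765 genes that carried a single symbol. By the symbols and the known location of each protein, 66 genes coded for plasma membrane carriers, 19 for carriers of the mitochondrial SLC25 family, 13 for carriers of intracellular membranes, and 16 had another or a mixed location. Among these last are 3 genes that the rule takes in by name only: SLC2A4RG codes for a regulator of transcription, and SLC9A3R1 and SLC9A3R2 code for scaffold proteins.

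Livers of German Landrace pigs were profiled on Affymetrix porcine arrays, 1 array per animal, in 15 fetuses at 94 days after conception (94 dpc) and in 15 newborns at 1 day (1 dpn), 14 piglets on the day of weaning at 28 days (28 dpn, called weaners) and 16 young adults at 188 days after birth (188 dpn). All were offspring of gilts on an adequate protein diet during gestation, so no dietary contrast is present. Fetuses came by Caesarean section from other sows than the postnatal animals, which were cross-fostered to other sows after the newborn sampling. The pigs at 28 and 188 dpn were killed after an overnight fast, males were castrated in the first week, and fetuses and newborns were chosen as light and heavy litter mates. The labels give no litter, sex or weight, and the animals of a stage included pairs of sibs. Piglets of one litter were also spread over 1, 28 and 188 dpn, so that the postnatal stages share litters that the comparisons of periods II and III could not include. P-values therefore measure the spread between these animals, taken as independent. They leave litter out and may be too small where sibs of a stage are alike.

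The liver takes up glucose, amino acids, bile acids and vitamins from portal blood and returns glucose to the circulation, and each of these steps needs its own carrier. The fetal liver is also a site of blood formation and is fed through the umbilical vein, whereas the newborn liver meets milk. Inside the hepatocyte, SLC25 carriers exchange ATP, phosphate, acylcarnitines, citrate and amino acids between cytosol and mitochondrial matrix. In a whole liver sample, fewer cells of a type and less RNA per cell cannot be told apart.

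Values are given as log2 of the deposited intensity plus 16, as the mean ± SD over the animals of a stage unless stated otherwise, and a gene with several probe sets is represented by the one of highest mean. Consecutive stages were compared with limma, and a gene counted as changed at a Benjamini-Hochberg adjusted p below 0.05 over all probe sets past an intensity filter. The 3 comparisons are called period I (1 dpn against 94 dpc), period II (28 dpn against 1 dpn) and period III (188 dpn against 28 dpn), and consecutive periods share the animals of the stage between them. Arrays had been scaled to a common trimmed mean, yet their median intensity lay between 160 and 182 in fetuses, 133 and 166 in newborns, 107 and 125 in weaners and 102 and 120 in young adults. The ratio of actin signal at the 3′ end to that at the 5′ end, a measure of RNA quality, averaged 2.29, 1.76, 3.54 and 4.01 on the log2 scale at the 4 stages in turn. Its highest value at 1 dpn was 2.23 and its lowest value at 28 dpn was 2.85, so that the ratio separated both stages of period II completely. All 10 hepatocyte markers were above the array's negative controls at every stage. Of these, 3 rose and 1 fell in period I, and 1 rose and 6 fell in period II. In period III 7 rose and 0 fell. Over all genes 29.8% rose and 35.6% fell in period I, 32.2% and 35.7% in period II, and 17.5% and 28.3% in period III. The median changes of the markers were -0.09, -0.38 and 0.30, against -0.06, -0.03 and -0.06 over all genes.

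Of the 114 genes, 83 passed the filter in at least 1 period and 31 in none. Those that passed in none comprised 26 plasma membrane carriers, 3 SLC25 carriers and 2 of other location, and no stage mean among them exceeded 7.43. For 10 genes the mean was at or below the highest of the array's Tag controls at all 4 stages. Between the stages, 80 of the 83 genes differed in limma's moderated F test, against 94.6% of all genes tested. In period I, 30 of 74 solute carrier genes that passed rose (29.8% of all genes) and 22 fell (35.6% of all genes). In period II, 26 of 77 rose (32.2% of all genes) and 32 fell (35.7% of all genes). In period III, 26 of 78 rose (17.5% of all genes) and 20 fell (28.3% of all genes). Changes in both directions therefore occurred in each period, as the plot of changes by substrate class shows.

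**Figure D1:**
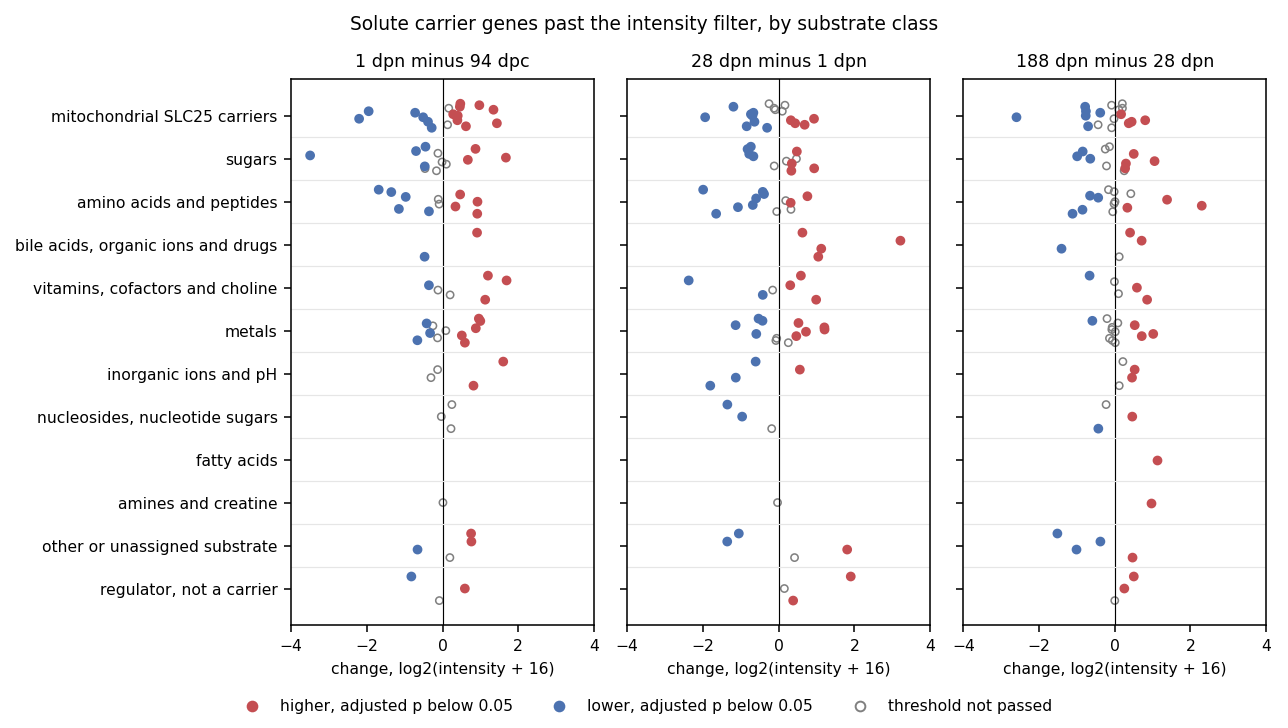
Change in log2(intensity + 16) of each solute carrier gene that passed the intensity filter, later stage minus earlier stage, for the 3 periods, with genes in rows by substrate class; filled points passed an adjusted p of 0.05 and open points did not. Both directions occur in most classes, with the largest fall at -3.50 in period I (SLC2A5, among the sugar carriers) and the largest rise at 3.22 in period II (SLC17A1, among the organic ion carriers).

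Setting the median of each array to one value moved the median change of all genes to 0.11 in period I and 0.28 in period II, against -0.06 and -0.03 on the deposited scale. With that centring 34 solute carrier genes rose and 15 fell in period I, and 38 rose and 24 fell in period II. The split between rises and falls therefore depended on the scale. In period II only 9 of the 26 rises and 11 of the 32 falls were still called with the actin ratio as a covariate. The rises that were kept were those of SLC10A1, SLC17A1, SLC25A4, SLC25A37, SLC2A4RG, SLC31A1, SLC31A2, SLC9A3R2 and SLCO2B1. The falls that were kept were those of SLC16A13, SLC2A8, SLC23A1, SLC25A3, SLC25A5, SLC25A12, SLC25A39, SLC33A1, SLC35A3, SLC4A2 and SLC7A9. In period I the calls of 10 genes were lost with this covariate, namely SLC1A1, SLC25A12, SLC25A30, SLC25A39, SLC2A1, SLC39A1, SLC3A2, SLC44A2, SLC4A2 and SLC7A7, and in period III those of SLC1A5, SLC25A30, SLC26A6, SLC33A1, SLC45A2 and SLC50A1. Since the ratio separated both stages of period II, a part of RNA quality and of stage cannot be told apart there. This holds for the period II calls that were kept as well.

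Among the sugar carriers, the fructose transporter SLC2A5 (GLUT5) showed the largest change between consecutive stages of all solute carriers past the filter. Its lowest, median and highest values were 6.88, 9.71 and 11.01 in fetuses, 4.40, 6.20 and 7.20 in newborns, 4.22, 5.45 and 6.64 in weaners and 4.18, 5.41 and 7.17 in young adults. All fetuses but the lowest lay above every newborn, and the 3 postnatal stages were at the level of the negative controls. SLC2A5 fell by 3.50 ± 0.32 (SE) in newborns compared with fetuses (adjusted p = 3.0e-11, limma), which, with newborns at background, is at least 8.52-fold. It passed the filter through its values in fetuses only, so that the filter favoured a fall. Fetuses varied more in SLC2A5 than in any other solute carrier past the filter, with an SD of 1.05 against a median SD of 0.29 over these genes.

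The facilitative glucose transporters followed different courses. SLC2A2 (GLUT2), the main glucose carrier of hepatocytes, was highest in newborns, with stage means of 10.62 ± 0.21 in fetuses, 11.49 ± 0.37 in newborns, 10.67 ± 0.19 in weaners and 10.42 ± 0.47 in young adults. It rose 1.83-fold in period I (adjusted p = 3.8e-08, limma) and fell 1.77-fold in period II (adjusted p = 1.8e-07, limma; 0.26 with the actin ratio as a covariate). SLC2A1 (GLUT1), the widespread carrier of fetal and proliferating cells, was highest in fetuses, with 9.68 ± 0.39 in fetuses, 9.23 ± 0.29 in newborns, 8.49 ± 0.31 in weaners and 8.35 ± 0.19 in young adults. Within the same liver, the difference SLC2A2 minus SLC2A1 averaged 0.94 in fetuses, 2.26 in newborns, 2.18 in weaners and 2.07 in young adults, so that the shift between both carriers fell into period I. Its ranges still overlapped, with a lowest value of 1.14 at 1 dpn against a highest value of 1.58 at 94 dpc.

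SLC2A8 (GLUT8), a sugar carrier of intracellular membranes, had the largest rise of the class in period I. Its values ran from 9.31 to 10.28 at 1 dpn with a median of 10.01, against 7.45 to 8.90 with a median of 8.44 at 94 dpc. The ranges did not overlap, and the gene rose 3.19-fold (adjusted p = 1.1e-11, limma). It then fell 1.59-fold in period II and 1.99-fold in period III to 8.25 ± 0.59 at 188 dpn. SLC2A3 (GLUT3) fell in period I by 0.70 and in period III by 0.85, with a rise of 0.48 between them.

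SLC37A4, which carries glucose 6-phosphate into the endoplasmic reticulum for glucose release, rose with age. Its lowest, median and highest values were 11.62, 11.86 and 12.15 in fetuses, 12.07, 12.43 and 13.17 in newborns, 12.34, 12.77 and 13.04 in weaners and 13.14, 13.85 and 14.22 in young adults. Young adults lay above all weaners, and the rise in period III was 2.07-fold (adjusted p = 1.9e-09, limma). The other probe set of SLC37A4 gave the same direction in periods I and III, with changes of 0.48 and 1.02, and a larger change in period II, 0.83 against 0.20. The rise in period I was 1.59-fold with the chosen probe set.

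**Figure D2:**
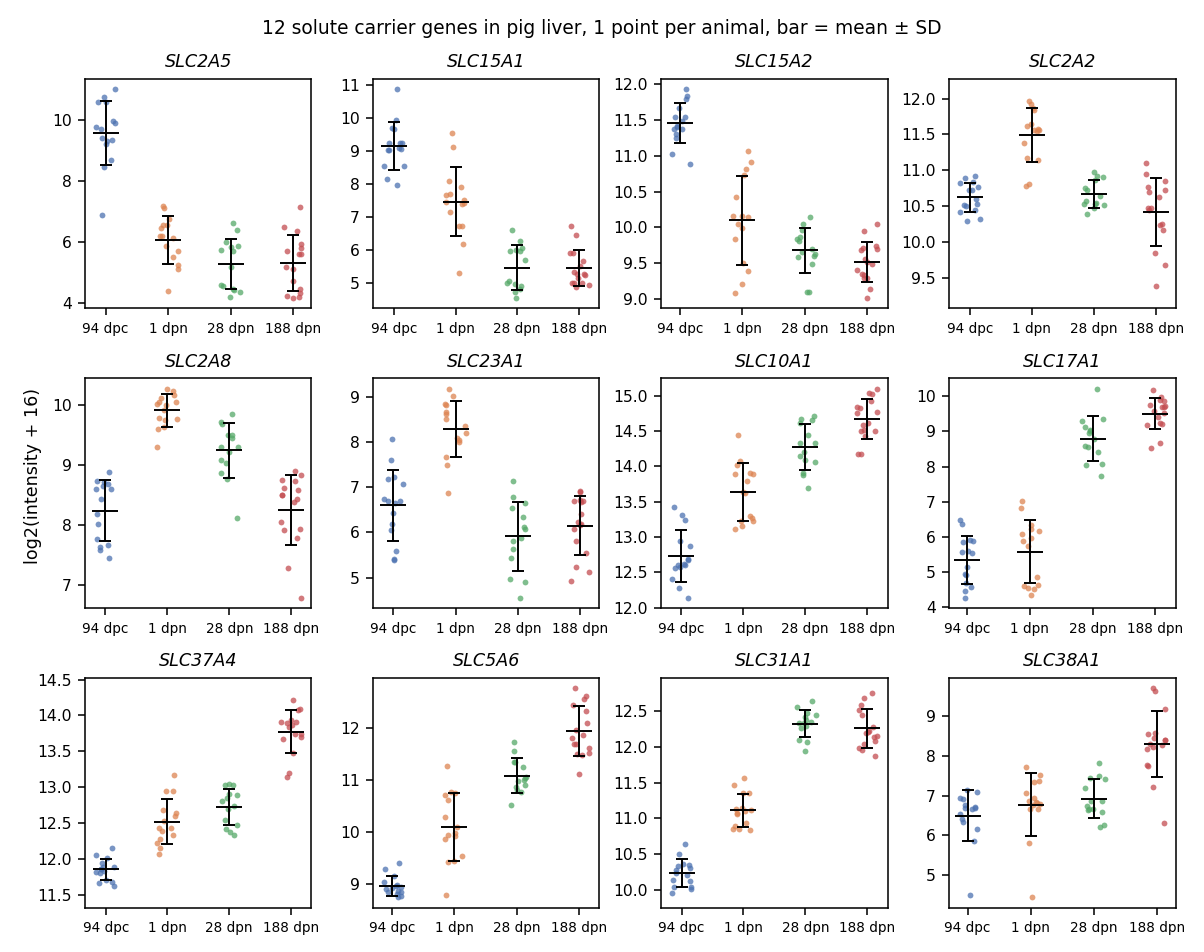
Intensity of 12 solute carrier genes in each of the 60 livers as log2(intensity + 16), by stage; each point is 1 animal, and the bars give the stage mean ± SD (n = 15, 15, 14 and 16). The genes fall from fetal life onwards (SLC2A5, SLC15A1, SLC15A2), are highest at 1 dpn (SLC2A2, SLC2A8, SLC23A1) or have their highest mean at 28 or 188 dpn (the other 6 genes).

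Among peptide and amino acid carriers, 4 of 11 rose and 5 fell in period I, 2 of 12 rose and 7 fell in period II, and 3 of 13 rose and 4 fell in period III. These are shares of 36.4% and 45.5%, 16.7% and 58.3%, and 23.1% and 30.8%, against 29.8% and 35.6%, 32.2% and 35.7%, and 17.5% and 28.3% of all genes. SLC15A1 and SLC1A2 in period II, and SLC3A1 and SLC38A1 in period III, passed the filter through a single stage. The filter therefore favoured the direction of their changes. Both proton-coupled peptide transporters, which bring di- and tripeptides into cells, were highest in fetuses. SLC15A2 had values from 9.08 to 11.06 at 1 dpn with a median of 10.14, against 10.89 to 11.93 with a median of 11.42 at 94 dpc. The ranges touched over a small part, and the gene fell 2.56-fold (adjusted p = 2.6e-08, limma), with its other 2 probe sets falling by 1.39 and 1.20 on the log2 scale against 1.35 for the chosen one. SLC15A1 was 9.14 ± 0.72 in fetuses, 7.45 ± 1.04 in newborns, 5.46 ± 0.68 in weaners and 5.44 ± 0.55 in young adults, with the later 2 stages at the level of the negative controls. It fell 3.22-fold in period I (adjusted p = 1.7e-05, limma), and by at least 3.08-fold in period II. In period II SLC15A1 passed the filter through newborns only, so that the filter favoured a fall. That call was lost with the actin ratio as a covariate, at a change of -0.90 (adjusted p = 0.42, limma). It was also lost with the filter set on the mean or at 75% of the animals.

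SLC2A5 and SLC15A1 are best known from the small intestine, and the levels of intestinal marker genes were therefore read beside them, with a list chosen after these values were seen. FABP2, the fatty acid binding protein that defines enterocytes, was at background at all 4 stages, and LGALS4 at 94 dpc, 1 dpn and 188 dpn. The other markers on the array were above background at all 4 stages, as was LGALS4 at 28 dpn. The summed intensity of the 7 markers on the array ranged from 3880 to 12702 at 1 dpn against 5853 to 8136 at 94 dpc, and 1 of the 4 markers that passed the filter rose and 2 fell.

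SLC1A4, a carrier of alanine, serine and cysteine, was lower at each later stage, with 9.64 ± 0.29, 8.67 ± 0.36, 8.07 ± 0.26 and 7.42 ± 0.24 at 94 dpc, 1, 28 and 188 dpn. SLC7A1, the carrier of arginine and lysine that most cells outside the adult liver use, was 9.49 ± 0.32, 8.33 ± 0.52, 8.66 ± 0.32 and 7.80 ± 0.37 at these stages, with falls of 2.23-fold in period I (adjusted p = 7.4e-08, limma) and 1.81-fold in period III (adjusted p = 2.4e-06, limma). SLC1A5, the glutamine carrier, was called only in period III, at a change of -0.44.

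SLC3A2, the heavy chain that brings several amino acid carriers to the cell surface, rose by 0.34 in period I, fell by 1.08 in period II and rose by 0.33 in period III. SLC3A1 and SLC7A9 code for the heavy and the light chain of one carrier of cystine and dibasic amino acids, known from kidney and intestine. SLC7A9 was 8.72 ± 0.52 in fetuses, 9.63 ± 0.52 in newborns, 7.98 ± 0.64 in weaners and 6.87 ± 0.82 in young adults, with a rise of 1.89-fold in period I and falls of 3.14-fold and 2.17-fold in periods II and III. SLC3A1 had values from 7.44 to 9.94 at 188 dpn with a median of 8.89, against 5.67 to 7.20 with a median of 6.55 at 28 dpn. These ranges did not overlap, and the rise was 4.92-fold (adjusted p = 9.7e-10, limma). SLC3A1 passed the filter in period III through its values at 188 dpn only, so that the filter favoured a rise. The other probe set of SLC3A1 followed another course, with 7.83, 7.35, 5.07 and 5.17 at the 4 stages, and did not pass the filter in period III.

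SLC38A1, a sodium-coupled glutamine carrier, was 6.49 ± 0.64, 6.77 ± 0.78, 6.92 ± 0.48 and 8.30 ± 0.83 at 94 dpc, 1, 28 and 188 dpn. It rose 2.60-fold in period III (adjusted p = 2.6e-05, limma), and a further probe set rose by 1.66 on the log2 scale, while the third did not pass the filter. The chosen probe set passed through its values at 188 dpn only, so that the filter favoured a rise. Young adults spread widely, from 6.30 to 9.69, and overlapped the weaners, whose highest value was 7.81. SLC38A10 lay between 9.18 and 10.45 in newborns, against 8.06 and 9.09 in fetuses, and rose 1.89-fold in period I without overlap. The high-affinity glutamate carrier SLC1A2 was at background at 94 dpc and 1 dpn, 7.00 ± 1.07 at 28 dpn and 7.42 ± 0.62 at 188 dpn.

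Carriers of bile acids and organic ions were few on the array. Of 9 such genes 4 passed the filter in period II, and all 4 rose in it, against 32.2% of all genes. SLC17A1 and SLC22A3 passed through their values at 28 dpn only, so that the filter favoured a rise for them. SLC10A1 (NTCP), the sodium-dependent uptake carrier for conjugated bile acids at the sinusoidal membrane, was higher at each later stage. Its lowest, median and highest values were 12.14, 12.62 and 13.43 in fetuses, 13.12, 13.64 and 14.44 in newborns, 13.70, 14.27 and 14.71 in weaners and 14.17, 14.68 and 15.09 in young adults. The ranges of neighbouring stages overlapped, and every animal at 28 dpn lay above every fetus. The rises were 1.88-fold in period I (adjusted p = 9.5e-07, limma), 1.54-fold in period II (adjusted p = 1.6e-04, limma) and 1.32-fold in period III (adjusted p = 4.2e-03, limma; not called after quantile normalization).

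SLC17A1 (NPT1), a carrier of phosphate and urate, was at background at 94 dpc and 1 dpn. Its values ran from 7.73 to 10.21 at 28 dpn with a median of 8.87, against 4.35 to 7.01 with a median of 5.88 at 1 dpn, and from 8.54 to 10.19 with a median of 9.64 at 188 dpn. Weaners and newborns did not overlap. The fitted change in period II was 3.22 ± 0.28 (SE; adjusted p = 1.6e-11, limma), which is at least 5.37-fold with newborns at background. The uptake carrier SLCO2B1 was 12.26 ± 0.18, 11.78 ± 0.25, 12.83 ± 0.24 and 12.95 ± 0.35 at 94 dpc, 1, 28 and 188 dpn, and rose 2.06-fold in period II with no overlap. SLC22A3, an organic cation carrier, was highest at 28 dpn with 7.92 ± 0.67, against 6.79 ± 0.52 at 1 dpn, and was 6.51 ± 0.50 at 188 dpn. SLCO1A2, a further organic anion carrier, passed the filter in no period.

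SLC23A1 (SVCT1), a sodium-dependent carrier of vitamin C, had values from 6.88 to 9.18 at 1 dpn with a median of 8.35, against 5.39 to 8.06 with a median of 6.69 at 94 dpc. Both ranges overlapped, and the rise was 3.23-fold (adjusted p = 3.7e-07, limma). At 28 dpn the gene was lower by 5.19-fold than at 1 dpn, with values from 4.56 to 7.13 (adjusted p = 6.0e-10, limma; 0.00047 with the actin ratio as a covariate). With values floored at background the rise was 3.06-fold and the fall 4.45-fold. SLC23A1 passed the filter in periods I and II through newborns only, so that the filter favoured the rise and the fall. Neither change could be called with the mean of its probe sets or with the filter set on the mean, where the gene did not pass.

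SLC5A6 (SMVT), the carrier of biotin and pantothenate, rose in all 3 periods, by 2.18-fold, 1.99-fold and 1.81-fold. Its lowest, median and highest values were 8.76, 8.94 and 9.41 in fetuses, 8.79, 9.99 and 11.27 in newborns, 10.52, 11.03 and 11.74 in weaners and 11.12, 11.84 and 12.76 in young adults. Newborns were the most variable, with an SD of 0.65 against 0.19 in fetuses, and the ranges of neighbouring stages overlapped in each period. The call in period II was lost with the actin ratio as a covariate (adjusted p = 0.19). SLC22A5 (OCTN2), which brings carnitine into the cell, was 7.06 ± 0.49, 8.26 ± 0.43, 8.85 ± 0.38 and 8.18 ± 0.34 at the 4 stages, with a rise of 2.29-fold in period I (adjusted p = 1.2e-07, limma). In that period it passed the filter through newborns only, so that the filter favoured a rise. The folate carrier SLC46A1 rose only in period III, to 10.28 at 188 dpn against 9.70 at 28 dpn.

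Of the metal carriers that passed the filter, 5 of 11 rose and 3 fell in period I, 5 of 12 rose and 4 fell in period II, and 3 of 12 rose and 1 fell in period III. The shares over all genes were 29.8% and 35.6%, 32.2% and 35.7%, and 17.5% and 28.3% in the same order. The copper uptake carrier SLC31A1 (CTR1) had values from 10.84 to 11.56 at 1 dpn with a median of 11.11, against 9.97 to 10.64 with a median of 10.24 at 94 dpc. At 28 dpn its values ran from 11.94 to 12.63 with a median of 12.34. Neither pair of neighbouring stages overlapped, and the rises were 1.84-fold in period I (adjusted p = 9.1e-11, limma) and 2.31-fold in period II (adjusted p = 2.9e-13, limma). At 188 dpn it was 12.25 ± 0.26, a change of -0.07 that did not pass the threshold. Its relative SLC31A2 rose 2.32-fold in period II alone, again without overlap.

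The iron carrier SLC11A2 (DMT1) was highest in newborns, at 9.50 ± 0.31 against 8.50 ± 0.23 in fetuses, a rise of 2.00-fold (adjusted p = 4.4e-10, limma). With the mean of its probe sets SLC11A2 did not pass the filter in any period. SLC39A14 (ZIP14), which takes up zinc and non-transferrin iron, rose by 0.51 in period I, fell by 0.59 in period II and rose by 1.02 in period III to 10.26 ± 0.52 (adjusted p = 6.1e-06, limma). The zinc carrier SLC39A5 fell in period I alone, to 11.48 ± 0.17 at 1 dpn against 12.14 ± 0.12 at 94 dpc, with no overlap. SLC39A4, another zinc carrier, rose by 0.71 in period III. SLC30A5, which loads zinc into the secretory pathway, fell 2.20-fold in period II and rose 1.44-fold in period III. SLC11A1 (NRAMP1), a metal carrier of phagosomes that marks macrophages and neutrophils, rose 1.94-fold in period I and fell 1.45-fold in period II. The summed intensity of 7 macrophage markers was 16880 to 28556 at 1 dpn, against 12516 to 17622 at 94 dpc, and 34402 to 59865 at 28 dpn. That of 7 neutrophil markers was 1506 to 14793 at 1 dpn, against 11507 to 34769 at 94 dpc, and 517 to 1998 at 28 dpn. The part of these cells in the change of SLC11A1 was not tested.

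Most carriers of inorganic ions were near background, and only 4 of 12 passed the filter in each period. SLC12A4 (KCC1), a potassium and chloride cotransporter, had values from 9.51 to 10.88 at 1 dpn with a median of 10.23, against 8.25 to 8.93 with a median of 8.54 at 94 dpc. The ranges did not overlap, and the rise was 3.04-fold (adjusted p = 4.9e-14, limma). SLC4A2 (AE2), an exchanger of chloride and bicarbonate, was 6.99 ± 0.79, 7.81 ± 0.35, 6.00 ± 0.75 and 6.44 ± 0.80 at 94 dpc, 1, 28 and 188 dpn, with a fall of 3.50-fold in period II. With values floored at background this fall was 3.13-fold. SLC4A2 passed the filter in periods I and II through newborns only, which favoured a rise and then a fall. Its calls in both periods were lost with the filter set on the mean. SLC4A2 also serves the bile duct. Of 7 cholangiocyte markers on the array, 4 passed the filter in period II. Of these 0 rose and 2 fell, against 32.2% and 35.7% of all genes. Their part in the fall of SLC4A2 was not tested. SLC26A6 fell 2.19-fold in period II and rose 1.37-fold in period III. The fall was not called with the actin ratio as a covariate (adjusted p = 0.07, limma). The rise was not called with this covariate, without the filter, in 1 fit over all 4 stages or without the least correlated arrays. For SLC26A11 both probe sets were called in period II and in opposite directions, 0.56 and -0.67.

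Of the 5 nucleoside and sugar nucleotide carriers, 3 passed the filter in period II. Of these 0 rose and 2 fell, against 32.2% and 35.7% of all genes. SLC29A1 (ENT1), the equilibrative carrier of nucleosides, was 8.21 ± 0.42 at 28 dpn against 9.57 ± 0.33 at 1 dpn, a fall of 2.56-fold (adjusted p = 5.2e-10, limma; 0.075 with the actin ratio as a covariate). SLC35A3, which carries UDP-N-acetylglucosamine into the Golgi, fell 1.95-fold in period II and rose 1.38-fold in period III. SLC33A1, the acetyl-CoA carrier of the endoplasmic reticulum, was 9.62 ± 0.14, 10.38 ± 0.38, 9.02 ± 0.27 and 8.64 ± 0.44 at the 4 stages, and weaners did not overlap with newborns. SLC16A13, of the monocarboxylate carrier family, was highest at 1 dpn with 10.51 ± 0.46, and fell 2.08-fold in period II and 2.86-fold in period III. SLC46A2 fell, rose and fell again by 0.66, 1.81 and 1.01. In periods I and II its newborn values did not meet the filter, so that a fall and then a rise were favoured. In period III SLC6A8, the creatine carrier, rose 1.93-fold to 9.34 ± 0.52, and SLC27A6, of the fatty acid transport proteins, rose 2.17-fold to 7.69 ± 0.58 (not called with the mean of its probe sets). SLC27A6 passed the filter in that period through its values in young adults only, so that the filter favoured a rise.

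The SLC25 family carries metabolites across the inner mitochondrial membrane. Of 16 members that passed the filter in each period, 9 rose and 6 fell in period I, 4 rose and 8 fell in period II, and 4 rose and 6 fell in period III. Among plasma membrane carriers, 11 of 33 rose and 12 fell in period I, 12 of 34 rose and 16 fell in period II, and 13 of 35 rose and 7 fell in period III. Over all genes 29.8% rose and 35.6% fell in period I, 32.2% and 35.7% in period II, and 17.5% and 28.3% in period III, so that the 33.3% and 36.4% of plasma membrane carriers in period I lay near those shares. The median change of SLC25 carriers was 0.34 in period I against -0.12 for plasma membrane carriers and -0.06 for all genes. The signs of these medians depended on the scale, as that of plasma membrane carriers in period I was 0.05 after median centring, where that of all genes was 0.11. In period II the medians were -0.28 and -0.11, and both turned positive after centring, to 0.03 and 0.21. In period III they were -0.08 for SLC25 carriers and 0.12 for plasma membrane carriers, against -0.06 for all genes.

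Averaged over the members within each liver after centring each gene on its mean, SLC25 carriers exceeded plasma membrane carriers by 0.17 ± 0.15 in fetuses, 0.16 ± 0.09 in newborns and 0.06 ± 0.17 in weaners, and differed from them by -0.37 ± 0.16 in young adults. The highest young adult had a difference of -0.16 and the lowest animal of any earlier stage -0.14. Without SLC25A33, the member of widest span, the difference was 0.05 ± 0.15, 0.07 ± 0.08, 0.09 ± 0.16 and -0.19 ± 0.13 at the 4 stages, and young adults overlapped with the earlier stages, with a highest value of -0.01 against a lowest value of -0.16 in fetuses. This is a description of the members chosen, since 16 and 40 genes entered these averages.

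**Figure D3:**
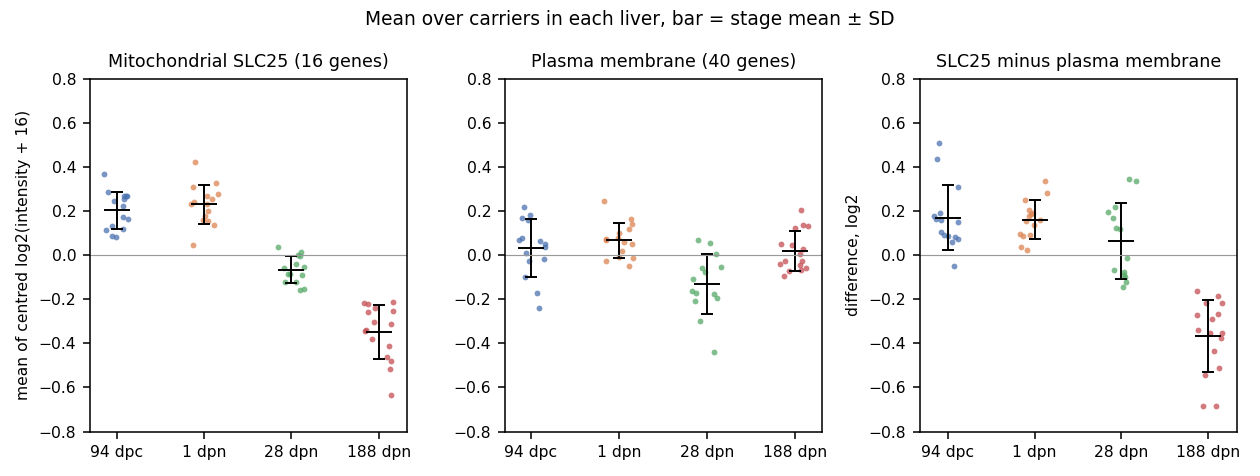
Mean over 16 mitochondrial SLC25 carriers, over 40 plasma membrane carriers, and their difference in each liver, from log2(intensity + 16) centred on each gene's mean over the 60 arrays; each point is 1 animal and the bars give the stage mean ± SD. The difference is -0.37 ± 0.16 at 188 dpn, and -0.19 ± 0.13 without SLC25A33, where the range overlaps with those of earlier stages.

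The 3 carriers that exchange ADP and ATP took unequal courses. SLC25A4 (ANT1), the form of heart and muscle, had values from 12.25 to 13.29 at 1 dpn with a median of 12.76, against 11.14 to 11.63 with a median of 11.34 at 94 dpc. It rose 2.70-fold in period I without overlap (adjusted p = 1.3e-15, limma) and further by 1.35-fold and 1.29-fold to 13.61 ± 0.17 at 188 dpn. SLC25A5 (ANT2), the form of growing cells, rose 1.53-fold in period I and then fell 1.80-fold in period II and 1.63-fold in period III, to 11.83 ± 0.29. SLC25A6 (ANT3) fell by 0.29 in period I and by 0.31 in period II, the second of which was 0.01 after median centring.

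Within the same liver, SLC25A4 minus SLC25A5 ran from -1.70 to -1.13 in fetuses, -1.06 to -0.14 in newborns, 0.42 to 1.01 in weaners and 1.27 to 2.22 in young adults. No 2 stages overlapped in this difference. The zero of such a difference has no meaning, as the probe sets differ in their response, and near-identical stretches of the 3 genes may share signal. Skeletal muscle RNA was read beside SLC25A4: the summed intensity of 5 muscle markers was 118 to 1223 at 1 dpn, against 1608 to 8993 at 94 dpc, and 64 to 332 at 188 dpn. Of these markers 3 were at background at 94 dpc and 1 dpn and 4 at 28 and 188 dpn, and their part in the course of SLC25A4 was not tested.

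**Figure D4:**
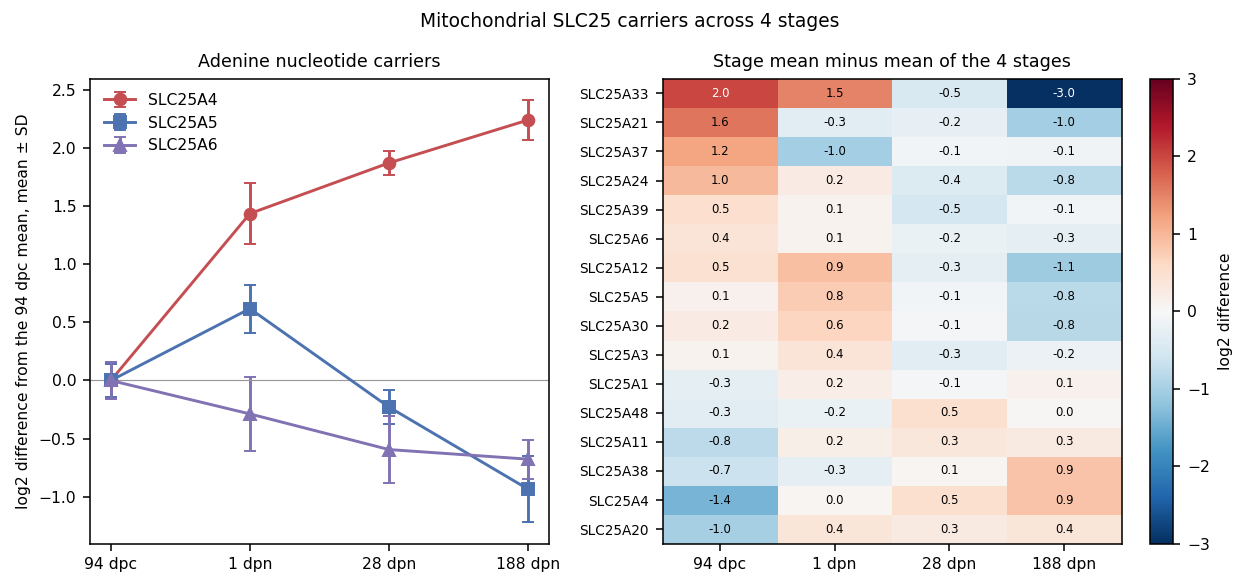
On the left, stage means ± SD of the adenine nucleotide carriers SLC25A4, SLC25A5 and SLC25A6 as the log2 difference from their mean at 94 dpc; on the right, stage means of 16 SLC25 carriers minus the mean of the 4 stages, ordered by the stage of the highest mean. SLC25A4 is higher at each later stage, SLC25A5 is highest at 1 dpn, and SLC25A33 has the widest span.

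SLC25A20, which brings acylcarnitines into the matrix for fatty acid oxidation, had values from 10.72 to 11.48 at 1 dpn with a median of 11.10, against 9.53 to 9.97 with a median of 9.74 at 94 dpc. It rose 2.54-fold without overlap (adjusted p = 6.1e-16, limma) and was 10.98 ± 0.35 at 28 dpn and 11.09 ± 0.29 at 188 dpn, with changes of -0.09 and 0.11 that did not pass the threshold. SLC25A11, the exchanger of oxoglutarate and malate, rose 1.96-fold in period I. SLC25A12, the aspartate and glutamate exchanger, rose 1.37-fold in period I (not called with the actin ratio as a covariate, adjusted p = 0.095) and fell 2.29-fold and 1.72-fold in periods II and III. The citrate carrier SLC25A1 rose 1.38-fold and the phosphate carrier SLC25A3 1.21-fold in period I (SLC25A3 not called with the mean of its probe sets, adjusted p = 0.24), and SLC25A3 fell 1.66-fold in period II.

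Carriers tied to iron and haem did not move together. SLC25A37 (mitoferrin 1), which brings iron into the mitochondria of red cell precursors, had values from 7.91 to 9.04 at 1 dpn with a median of 8.56, against 9.50 to 11.43 with a median of 10.83 at 94 dpc. It fell 4.61-fold without overlap (adjusted p = 2.7e-15, limma) and rose 1.91-fold in period II. The 8 erythroid markers on the array all fell in period I, and their summed intensity ran from 1393 to 5180 at 1 dpn, against 10343 to 45955 at 94 dpc, and from 1563 to 8446 at 28 dpn. Their part in the fall of SLC25A37 was not tested. SLC25A38, which supplies glycine for haem synthesis, rose in each period, by 0.39, 0.32 and 0.80, where the second change was -0.10 with the mean of its probe sets (adjusted p = 0.64) and 0.07 with the actin ratio as a covariate (adjusted p = 0.88). SLC25A39, needed for mitochondrial glutathione, fell by 0.39 and 0.64 and then rose by 0.45, and its first fall was not called with the actin ratio as a covariate (adjusted p = 0.096).

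Other SLC25 carriers were highest in fetuses. SLC25A33, a carrier of pyrimidine nucleotides, had the widest span of the family, with 11.92 ± 0.25, 11.40 ± 0.78, 9.46 ± 0.45 and 6.86 ± 0.87 at 94 dpc, 1, 28 and 188 dpn. It fell 3.84-fold in period II (adjusted p = 8.1e-09, limma; 0.078 with the actin ratio as a covariate) and 6.05-fold in period III without overlap (adjusted p = 9.8e-10, limma). In period I its probe sets were called in opposite directions, at -0.51 and 1.31. SLC25A21, the carrier of oxoadipate from lysine breakdown, lay between 6.01 and 7.79 in newborns, against 8.56 and 9.43 in fetuses, and fell 3.87-fold in period I without overlap. In that period it passed the filter through fetuses only, so that the filter favoured a fall. SLC25A24, the carrier of magnesium ATP and phosphate, fell 1.65-fold, 1.59-fold and 1.30-fold in the 3 periods with the chosen probe set, did not pass the filter with the mean of its probe sets, and was not called in period II with the actin ratio as a covariate (adjusted p = 0.81). SLC25A30, highest in newborns, spread most among young adults, with values between 5.82 and 9.54.

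The 3 genes that the rule took in by name only also changed. SLC2A4RG, a regulator that binds the promoter of the insulin-responsive glucose transporter gene in human cells, was 9.96 ± 0.22, 9.14 ± 0.39, 11.04 ± 0.21 and 11.54 ± 0.33 at the 4 stages. It rose 3.74-fold in period II without overlap (adjusted p = 1.5e-14, limma). SLC9A3R1, which anchors carriers to the cytoskeleton under the apical membrane, rose 1.50-fold in period I and 1.19-fold in period III.

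For comparison, ABC transporters, which use ATP to export solutes, had 4 rises and 0 falls among 8 that passed the filter in period I, and 2 rises and 6 falls in period II and 0 rises and 2 falls in period III among 9. Among 7 of 9 genes of ion pumps that passed the counts were 2 rises and 1 fall, 3 rises and 2 falls, and 0 rises and 2 falls. Among 26 genes of mitochondrial protein import and outer membrane pores they were 12 rises and 7 falls, 8 rises and 8 falls, and 4 rises and 6 falls. All 26 passed in each period, and the shares over all genes are those given above.

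Over all 4 stages, 55 solute carrier genes differed in the F test and spanned at least 2-fold between stage means. Their highest mean was at 94 dpc for 15 genes (27.3%), at 1 dpn for 14 (25.5%), at 28 dpn for 7 (12.7%) and at 188 dpn for 19 (34.5%). Of the 2602 genes that met the same rule over the array, 41.5%, 20.2%, 12.4% and 25.9% were highest at these stages. After median centring the solute carrier genes were 10, 14, 8 and 23, and those of the array 486, 394, 585 and 1242, so that the excess of late peaks over the array did not hold on that scale (41.8% against 45.9%).

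**Figure D5:**
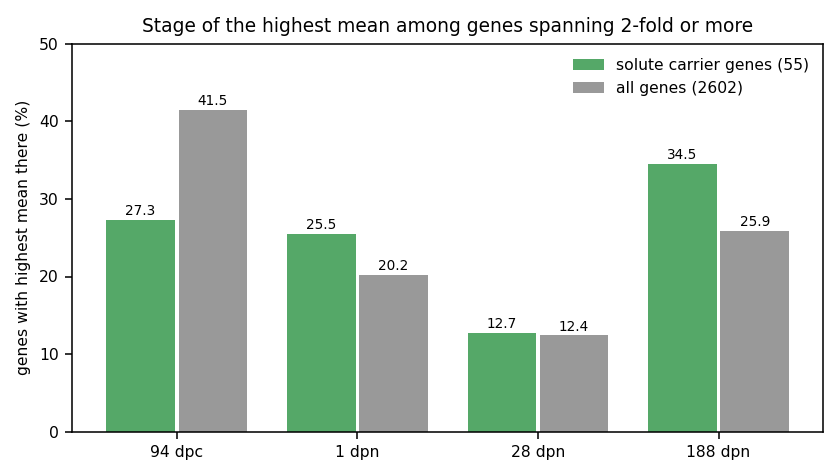
Share of genes whose highest stage mean fell on each stage, in percent, for 55 solute carrier genes and 2602 genes over the array that differed in the F test and spanned at least 2-fold. On the deposited scale 34.5% of solute carrier genes and 25.9% of all genes were highest at 188 dpn, and 27.3% and 41.5% at 94 dpc.

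The spread among animals of a stage had a median SD over the members past the filter of 0.29, 0.38, 0.35 and 0.35 at 94 dpc, 1, 28 and 188 dpn against 0.25, 0.34, 0.28 and 0.31 over all genes, which was not tested. SLC15A1 varied most in newborns with an SD of 1.04, SLC1A2 in weaners with 1.07 and SLC25A30 in young adults with 1.05. Of 51 solute carriers listed for a report at every stage, 28 were represented by a single symbol on this array, and the others were not analysed here.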

How the data were processed

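Liver RNA of 60 pigs was hybridised to Affymetrix porcine arrays, 1 array per animal. The authors deposited 1 table of linear intensity values for 24123 probe sets; per the labels' processing notes they came from GCOS 1.1.1, and each array's trimmed mean was 500.1 to 500.2. These are not the GCRMA values that the study's methods describe. After removal of 124 control probe sets, 10069 had 1 gene symbol, 198 several and 13732 none. Of the member probe sets 169 of 171 matched a RefSeq gene ID. Values were analysed as log2(intensity + 16). A probe set was tested where it exceeded the array median in at least 50% of the animals of a compared stage. Consecutive stages were compared with limma 3.58.1 in R 4.3.3, without covariates, as the labels give no litter, sex or weight; adjusted p-values are Benjamini-Hochberg over all probe sets tested. A stage mean at or below the highest Tag control was taken as background (5.86, 6.29, 5.73 and 5.84 at 94 dpc, 1, 28 and 188 dpn), and a fold change against it is a lower limit with values floored there. Arrays report no counts, so their number limits the precision. Arrays of a stage correlated at 0.90 to 0.97. The test was checked on simulated data of independent animals, which cannot show how sibs affect the p-values. Members are named as the 10 largest rises and falls per period, the largest span and changes per substrate class, and a fixed list. SLC families lettered B to F (9 genes) and 5 probe sets with several symbols were left out. Alternatives were other offsets, filters, normalizations, probe set means, a joint fit, the actin ratio as a covariate and removal of the least correlated array per stage. The members, classes and lists were chosen with earlier results of these data known. No sequences were used.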

Additional observations from a re-analysis of the deposited data

How the results depend on the processing

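Offsets of 1 and 64 kept all 52 and 58 calls in periods I and II and 45 and 46 of 46 in period III. With the mean of a gene's probe sets 43, 48 and 38 calls were kept in periods I, II and III and 1, SLC44A2, was called in the opposite direction; quantile normalization kept 49, 54 and 41, median centring 45, 50 and 45, and the filter on the mean 49, 52 and 43. Leaving out the least correlated array of each stage kept 50, 56 and 44 calls, losing SLC25A33 and SLC30A3, SLC15A2 and SLC1A2, and SLC25A3 and SLC26A6. With the actin ratio as a covariate 42, 20 and 40 were kept, and period II held 9 rises and 11 falls. There the difference of the medians of SLC25 and plasma membrane carriers was 0.027, and 0.17 with the mean of a gene's probe sets, against -0.17 in the main analysis. In period I it was 0.30 after quantile normalization, against 0.46. Without SLC25A33 the mean difference between SLC25 and plasma membrane carriers at 188 dpn was -0.19, against -0.37. Among single genes, the following changed sign. With the mean of a gene's probe sets, SLC25A33 changed by 0.40 in period I, and SLC25A38 by -0.10, SLC26A11 by -0.054 and SLC44A2 by -0.49 (adjusted p = 5.7e-05, limma) in period II. With the actin ratio, SLC39A4 changed by -0.014 and SLC44A2 by -0.058 in period II. SLC25A6 changed by 0.0070 in period II after median centring and SLC25A3 by -0.0043 in period III after quantile normalization. The cause was not tested. SLC44A2 and SLC26A11 have probe sets called in opposite directions in period II. Alternatives with a 75% filter, with families lettered B to F and without SLC25A33 were added after seeing the data. No paired analysis was possible because the labels give no litter or replicate number that joins animals of different stages. Of the 114 genes, 31 passed the filter in no period and were tested only without it. Without the filter 37 rises and 27 falls were called over all 114 genes in period I, 24 and 40 in period II, and 23 and 19 in period III.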
